A study of Mus musculus with 6 samples.

Results

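The 10 genes Dmd, Utrn, Dag1, Sntb1, Sntb2, Sgca, Sgcb, Sgcd, Dtna and Lama2 encode dystrophin, its homologue utrophin and proteins that bind them at the muscle cell membrane. They were chosen by name, and their members were the peaks of RNA bound to Ago2 that overlapped an exon of 1 of these genes by at least 1 bp (exons of GENCODE M21, mouse genome mm10, also called GRCm38). In 5 libraries, peaks that overlapped or touched were joined to 41363 intervals, of which 51 lay over exons of these genes. Utrn held 31 of them, Dtna 6, Dag1 4, Sntb1 and Sgca 3 each, Sgcb 2, and Dmd and Sntb2 1 each, whereas Sgcd and Lama2 held none.

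The libraries came from mouse satellite cells (MSC), the primary progenitors of skeletal muscle. Low serum (2% horse serum) was used to make them differentiate into myocytes. After 30 h of this, cultures received either a duplex of miR-222 or one against GFP (siGFP) as the control, at 10 nM by the labels (the methods give another concentration). The cells were lysed 16 h later, and Ago2, the protein that holds the miRNA in the RISC, was immunoprecipitated. RNA from these precipitates is called miR-222-IP or control-IP here. Experiment 1 had control-IPs 1 and 2 and miR-222-IP 1, and experiment 2 had control-IPs 3 and 4 and miR-222-IP 2, so that each experiment held 1 miR-222-IP.

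The lists give each peak's position and a score, the −log10 p of the peak caller, with 20 as the lowest score kept. Depth is unknown, and a score grows with depth as well as with enrichment. A library with no peak at a place has no score there, which does not show that the RNA was absent. The number of peaks ran from 10579 in control-IP 1 to 37762 in miR-222-IP 2 and was 20000, 21074 and 17892 in control-IP 2, miR-222-IP 1 and control-IP 4. Median widths in these 5 libraries were 362 to 411 bp. Control-IP 3 stood apart with 3619 peaks of median width 32100 bp on 10 chromosomes, and its peaks are described separately at the end. Peaks carry no strand, so that RNA of a gene and of an overlapping gene on the other strand cannot be told apart.

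In muscle fibres dystrophin links cortical actin to beta-dystroglycan, and alpha-dystroglycan binds laminin outside the cell. Sarcoglycans brace dystroglycan in the membrane, while dystrobrevin and the syntrophins sit on the cytoplasmic side and hold signalling proteins. Utrophin takes the place of dystrophin in immature fibres and remains at the neuromuscular junction of adult muscle. A miRNA guides the RISC to mRNAs by pairing of its seed, bases 2 to 8 from its 5′ end, most often with a site in the 3′UTR.

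The mature sequences, from RefSeq on GRCm38.p6, are shown because the search for sites rested on their seeds, which are in capitals. miR-221 shares the seed of miR-222, so that the same 7-mer stands for both. The other families are known in muscle (miR-206, with the seed of miR-1, and miR-133b, with that of miR-133a) or widely expressed.
miR-222-3p: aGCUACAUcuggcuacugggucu
miR-221-3p: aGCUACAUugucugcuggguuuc
miR-206-3p: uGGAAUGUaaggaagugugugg
miR-133b-3p: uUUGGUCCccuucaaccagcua
let-7c-5p: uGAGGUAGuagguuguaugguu
miR-31-5p: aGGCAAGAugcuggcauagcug

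The 7-mer that pairs with the miR-222 seed, ATGTAGC, occurred in 1 of the 51 intervals, read on the gene's strand. Over all exonic intervals with sequence it occurred in 2.51%. The interval lay over exon 17 of Utrn and the 7-mer lay in the intron that follows, 102 bp from the exon, in none of the 8 coding transcripts. Exon numbers here are those of the transcript with the longest coding sequence. In the spliced transcripts of the 10 genes the 7-mer occurred once, in exon 52 of Lama2, within the coding sequence and in 2 of 3 coding transcripts. No peak of the 5 libraries covered that site. Both sites are shown with 11 bases on each side, in genome build GRCm38 and on the minus strand, with the 7-mer in capitals.
Utrn, intron after exon 17, chr10:12720699-12720727: ttgcaaaatacATGTAGCcacagatggct
Lama2, coding, exon 52, chr10:27023351-27023379: ccaggaggagaATGTAGCtacttcatctt

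Shorter matches were more frequent. The 6-mer TGTAGC, which pairs with bases 2 to 7 of miR-222, occurred in 6 intervals, and 3 of those matches lay on exons. They were in coding exon 42 of Utrn, in the 3′UTR of Sgca and in the 3′UTR of Sntb2, where the 6-mer was followed by an A. They belong to 2 of 8, 2 of 5 and 1 of 2 coding transcripts. The Sntb2 match lies 114 bp past exon 6 of the transcript with the longest coding sequence, in a longer 3′UTR. The 3 matches stood under peaks of miR-222-IP 2 with scores of 55.5, 23.4 and 30.8, and no other of the 5 libraries had a peak there. The same held for 37 of the 51 intervals. Wide peaks of control-IP 3 covered the Utrn and Sgca matches (scores 156 and 59.9), and its list had no peak on the chromosome of Sntb2. The share of all exonic intervals with the 6-mer was not determined. A second 6-mer followed by an A in the 3′UTR of Sntb2 lay outside its peak. The 8-mer, with both the full seed match and the A, occurred in none of the intervals and in none of the spliced transcripts. The Sntb1, Dmd, Dag1, Sgcb and Sgcd transcripts held neither the 7-mer nor the 6-mer. The 3 exonic 6-mers are shown in capitals, with 11 bases on each side.
Utrn, coding, exon 42, chr10:12658509-12658536, minus strand: tggagcactctTGTAGCtgaggtggagg
Sgca, 3′UTR, exon 11, chr11:94962955-94962982, minus strand: ctacatgacctTGTAGCtccagctccag
Sntb2, 3′UTR, chr8:107013284-107013311, plus strand: gttccagaagcTGTAGCagccccaaccc

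**Figure D1:**
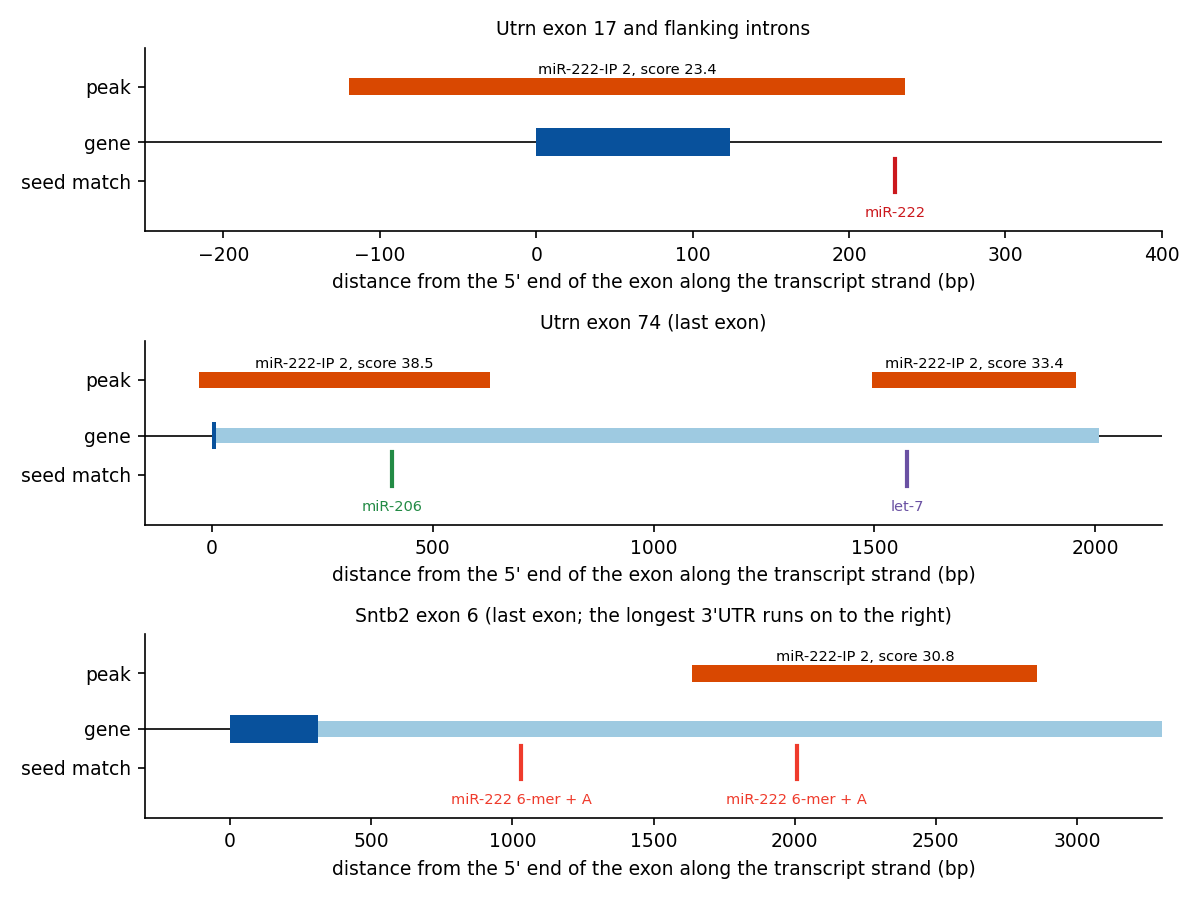
Peaks (orange bars, with library and score), gene parts (dark blue coding, light blue 3′UTR, line for intron) and seed matches (vertical ticks) at exon 17 and exon 74 of Utrn and exon 6 of Sntb2, against the distance in bp from the 5′ end of the exon along the transcript strand. The miR-222 7-mer lies past the 3′ end of exon 17, and the miR-206 and let-7 7-mers of the Utrn 3′UTR lie inside 1 peak each. In Sntb2, drawn with its longest 3′UTR, 1 of 2 miR-222 6-mers followed by an A lies inside the peak.

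Seeds of the other families were found in few intervals. The miR-206 7-mer was in 1 of 51 intervals beside 3.44% of all exonic intervals, and the let-7 7-mer was in 1 beside 3.62%. The miR-133 and miR-31 7-mers were in 2 intervals each, beside 3.25% and 4.25%. Of these 6 matches, 5 lay in Utrn or Dag1 and the other, for miR-31, in a 3′UTR interval of Dtna. The 3′UTR of Utrn, which lies in exon 74, held the miR-206 match under a peak of score 38.5 and the let-7 match under a peak of score 33.4. Both peaks were in miR-222-IP 2 alone among the 5 libraries. The miR-206 site belongs to 3 of 8 coding transcripts and the let-7 site to 2 of 8. The other Utrn matches were coding, for miR-133 in exon 44 (score 35.2 in miR-222-IP 2) and for miR-31 in exon 19 (20.1 in control-IP 2 and 76.2 in miR-222-IP 2). The 3′UTR of Dmd held 1 let-7 and 1 miR-31 match, neither of them under a peak. The 3′UTR sites of Utrn and Dmd are shown because the 2 homologues could be compared there, with the 7-mer in capitals.
Utrn, miR-206, chr10:12383774-12383802, minus strand: tttacattattACATTCCttctgctgttc
Utrn, let-7, chr10:12382608-12382636, minus strand: tgatcacctttCTACCTCagaaccacctt
Dmd, let-7, chrX:85204311-85204339, plus strand: tcatgctatttCTACCTCactttggtttt
Dmd, miR-31, chrX:85203251-85203279, plus strand: tcttcaaatgtTCTTGCCacttcctaatg

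Most exonic peaks of the 10 genes were in a single library. Exonic peaks numbered 2, 8 and 3 in control-IPs 1, 2 and 4, 10 in miR-222-IP 1 and 49 in miR-222-IP 2. Per 10000 peaks of the library these were 1.89, 4 and 1.68 in the control-IPs, 4.75 in miR-222-IP 1 and 13.0 in miR-222-IP 2. The value of miR-222-IP 2 was above those of the other 4 libraries, while miR-222-IP 1 was close to control-IP 2. With 1 miR-222-IP in each experiment this difference has no replicate check. Since the libraries are bulk RNA, fewer cells of a type and less RNA per cell cannot be told apart.

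By gene, 2 of the 10 genes had an exonic peak in control-IP 1, where 21.4% of all protein-coding genes had one. In control-IP 2 there were 3 (all genes 34.8%), in miR-222-IP 1 there were 4 (33.2%) and in control-IP 4 there was 1 (29.8%). In miR-222-IP 2 there were 8 of 10, beside 44.7% of all protein-coding genes. In any of the 5 libraries the 8 genes compare with 46.9% of all. Every interval of the complex outside miR-222-IP 2 belonged to Utrn, Dag1, Sgcb or Dtna.

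Of the 51 intervals, 39 were called in 1 library, 6 in 2, 4 in 3, 1 in 4 and 1 in 5. Among the 39 single calls, 37 were in miR-222-IP 2, 2 in miR-222-IP 1 and none in a control-IP. The 37 are 72.5% of the members, whereas 30.9% of all exonic intervals were called in miR-222-IP 2 alone. Without Utrn the share was 11 of 20 (55%). A peak in each of the 5 libraries was found for 1 of 51 intervals beside 19.8% of all exonic intervals. Only Dag1 and Dtna had an interval in control-IP 1, 2 of 51 in all, beside 25.4%.

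**Figure D2:**
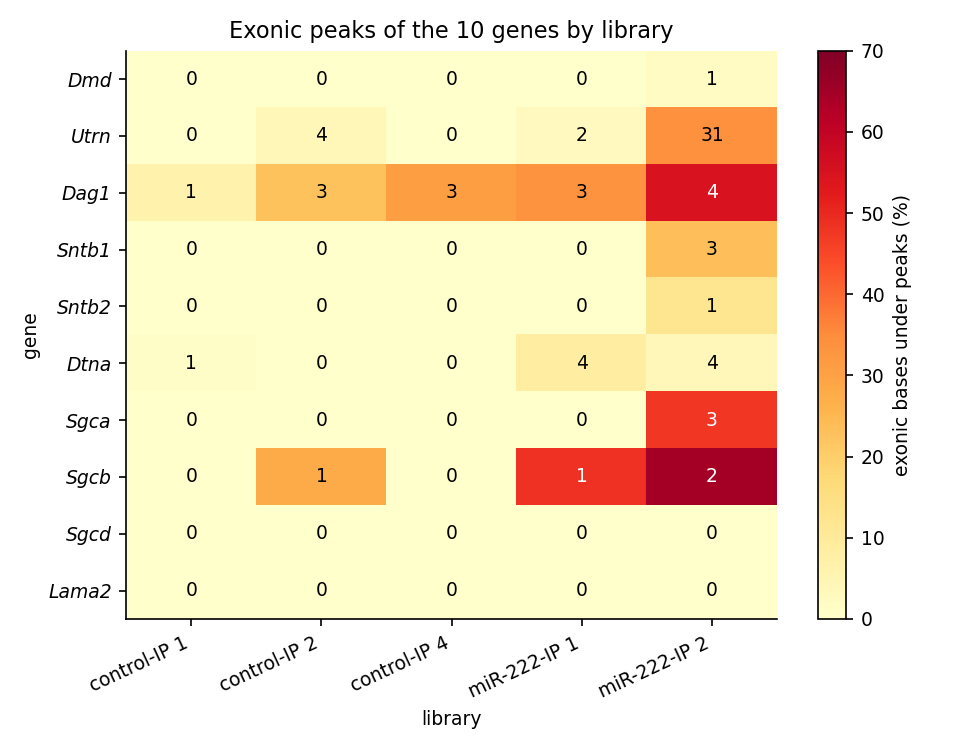
Exonic peaks of the 10 genes (rows) in 5 libraries (columns). The colour gives the percentage of the gene's exonic bases under peaks and the number in each cell counts the peaks. Dag1 has peaks in every library, Utrn has 31 in miR-222-IP 2 and 0 to 4 in the others, and Sgcd and Lama2 have none.

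Single calls of miR-222-IP 2 were not limited to low scores. Of its 49 member intervals, 12 had a score of 50 or more, and 5 of those 12 had no peak in another of the 5 libraries. Among all exonic intervals with such a score in miR-222-IP 2, 4.29% had none. The 5 were exons 20, 42, 51 and 70 of Utrn and the last exon of Sntb1. When the 10579 highest peaks of each library were kept, 8 member peaks remained in miR-222-IP 2, 2 in miR-222-IP 1, and 2, 5 and 3 in control-IPs 1, 2 and 4. The difference between miR-222-IP 2 and control-IP 2 was then 8 against 5, and 5 of the 8 belonged to Utrn.

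Peaks in both miR-222-IPs and in none of control-IPs 1, 2 and 4 were found over 2 member intervals, exon 54 of Utrn and exon 8 of Dtna. The share over all exonic intervals was 6.54%. At exon 54 of Utrn (chr10:12486288-12486745) the scores were 33.2 in miR-222-IP 1 and 101.9 in miR-222-IP 2. At exon 8 of Dtna (chr18:23590090-23590446) they were 25.7 and 49.0. Neither interval held the miR-222 7-mer or 6-mer. The count depends on single libraries: without control-IP 2 it was 4, without miR-222-IP 2 it was 4 for the peaks of miR-222-IP 1 alone, and without miR-222-IP 1 it was 39 for the peaks of miR-222-IP 2 alone.

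Markers of muscle, taken as a list, were also called most often in miR-222-IP 2, but not each of them. The list of 10 skeletal muscle markers had 64 exonic intervals, and all 64 were called in miR-222-IP 2 against 15, 18 and 18 in control-IPs 1, 2 and 4 and 23 in miR-222-IP 1. In miR-222-IP 2 alone there were 40 of the 64 (62.5%), beside 30.9% of all exonic intervals. Of its 35 muscle intervals of score 50 or more, 17 had no peak in another of the 5 libraries, beside 4.29% of all. Myog, a transcription factor of muscle differentiation, and Tnnt1, the slow skeletal troponin T, had peaks in miR-222-IP 2 only. The other 8 muscle markers had a peak in at least 1 further library. In miR-222-IP 2 alone there were 11 of 13 intervals of Myh8 and 10 of 14 of Myh3. By contrast, Myod1 and Acta1 had 1 interval each, called in all 5 libraries. Mef2c had 7, 10 and 9 intervals in control-IPs 1, 2 and 4 and 10 and 12 in miR-222-IPs 1 and 2. Whether the muscle RNA content of the libraries took part in the count of member peaks was not tested.

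Markers of other cells were also listed. All 4 macrophage markers had peaks, with 54 intervals, of which 31 to 47 were called in the control-IPs and 46 and 50 in miR-222-IPs 1 and 2, and Adgre1 reached a score of 235.8. In miR-222-IP 2 alone there were 3 of the 54, and none of its 33 macrophage intervals of score 50 or more was without a peak elsewhere. Fibroblast markers had an interval in 3 of 5 genes, endothelial markers in 2 of 3 and Schwann cell markers in 1 of 3, with 4, 7 and 6 intervals. The satellite cell markers Pax7 and Myf5 had none, whereas the proliferation markers Mki67 and Ccnb1 had 14 between them, 1 to 11 in a library. Of the 10 muscle markers 6 to 10 had a peak in each library, and of the 4 macrophage markers 3 or 4.

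**Figure D3:**
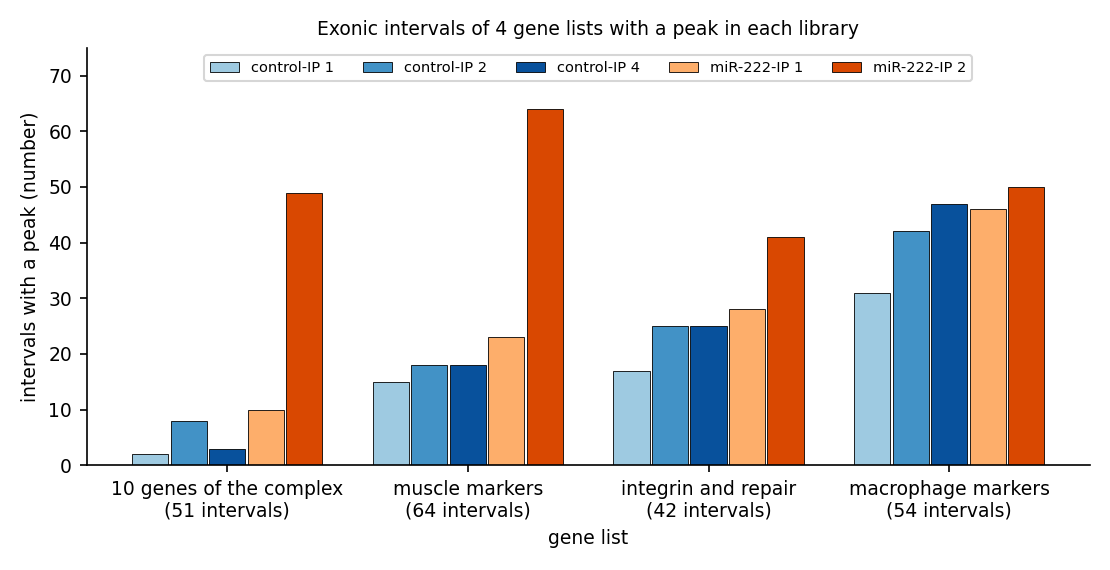
Number of exonic intervals with a peak in each of 5 libraries, for the 10 genes of the complex and 3 other gene lists. For the complex and the muscle markers the bar of miR-222-IP 2 (49 and 64) stands above 2 to 10 and 15 to 23 in the other libraries, and for the macrophage markers the bars run from 31 to 50.

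Utrophin had the most intervals of the 10 genes, also per length. Its 31 intervals are 1.81 per kb of exonic sequence, followed by Sgca with 1.73, Dag1 with 0.63, Sntb1 with 0.56, Sgcb with 0.49, Dtna with 0.35, Sntb2 with 0.097 and Dmd with 0.042. By number of intervals Utrn ranked 14 among the 10289 protein-coding genes with an interval, which had a median of 2. Peaks covered 3.95% of its exonic bases in control-IP 2, 2.54% in miR-222-IP 1 and 33.9% in miR-222-IP 2, and none in control-IPs 1 and 4. In miR-222-IP 2 this share was higher in Sgcb (64.8%), Dag1 (54.8%) and Sgca (47.4%). Intervals were joined along the genome, so that a gene of many short exons can hold many of them. Of the Utrn intervals, 26 (83.9%) were in miR-222-IP 2 alone. Over the 772 genes with 10 or more intervals the median of that share was 27.0%, and 15 of them (1.94%) were at or above Utrn.

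Utrn peaks fell on runs of exons. Of its 74 exons 30 had a peak in the 5 libraries. These were none of exons 1 to 11, all 9 of exons 12 to 20 and 1 of the 20 exons from 21 to 40. They were also 12 of the 15 from 41 to 55 and 8 of the 19 from 56 to 74. All 4 peaks of control-IP 2 were in the run from exon 12 to exon 20. The internal exons with a peak had a median length of 158 bp (88 to 269), and those without 135 bp (23 to 213). The ranges of length overlapped, and the shortest exons had no peak.

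The 5 Utrn intervals called in more than 1 library had scores of 38.9 to 102 in miR-222-IP 2 (median 76.2), and the 26 called there alone had 20.9 to 67.1 (median 36.9). Exon 15 (chr10:12727635-12728006) had scores of 39.9 in control-IP 2, 23.5 in miR-222-IP 1 and 94.0 in miR-222-IP 2. Exon 16 (chr10:12726150-12726492) had 31.0 in control-IP 2 and 72.0 in miR-222-IP 2. The control-IP 2 score was above that of miR-222-IP 1 at exon 15, and miR-222-IP 2 was the highest at all 5. Exon 19 had 20.1 in control-IP 2 and 76.2 in miR-222-IP 2, and exon 14 had 20.3 and 38.9. The highest score in miR-222-IP 2 alone was 67.1, at exon 70. The interval over exon 65 also overlapped an exon of the gene Gm48798, so that its peak cannot be assigned to Utrn with certainty.

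**Figure D4:**
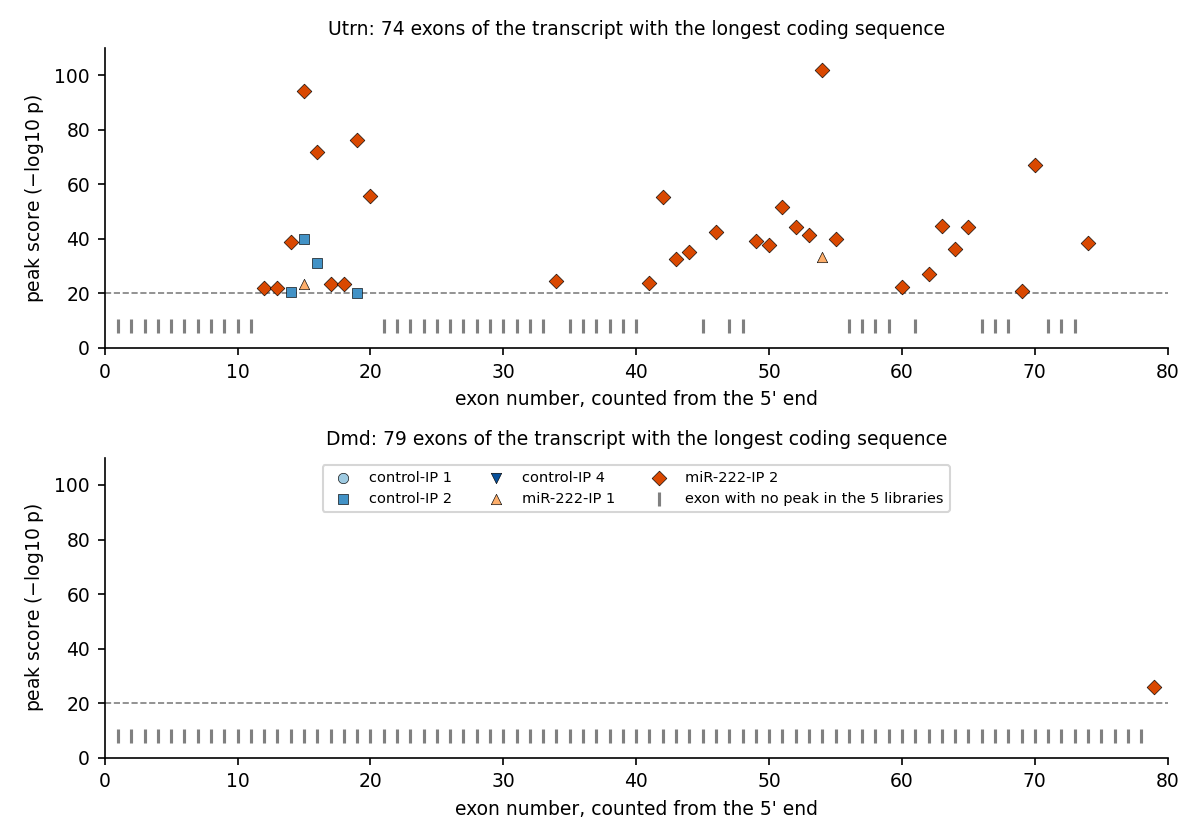
Peak score (−log10 p) against exon number for Utrn (74 exons) and Dmd (79 exons), one symbol per library with a peak (the highest where an exon has several), with grey ticks for exons without a peak and a dashed line at the threshold of 20. Utrn peaks gather at exons 12 to 20 and 41 to 55, and Dmd has a peak at its last exon only.

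Dystrophin had 1 interval. It lay in exon 79, the last, over the end of the coding sequence and the start of the 3′UTR (chrX:85202447-85202896), with a score of 26.1 in miR-222-IP 2. None of the other 78 exons had a peak in the 5 libraries. The exonic sequence of Dmd is longer than that of Utrn, 23801 against 17108 bp, and the lengths of its internal exons without a peak (median 150 bp, 32 to 269) overlapped those of the Utrn exons with one. Peaks covered 1.79% of the exonic bases of Dmd in miR-222-IP 2.

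Dystroglycan, the laminin receptor that joins dystrophin to the outside of the cell, was called in each of the 5 libraries. The 4 Dag1 intervals covered both coding exons, and none was in miR-222-IP 2 alone. Peaks covered 6.09%, 22.6% and 30.8% of its exonic bases in control-IPs 1, 2 and 4, and 33.4% and 54.8% in miR-222-IPs 1 and 2. In each experiment the share was higher in the miR-222-IP, the library with more peaks, than in these control-IPs. Among the 10579 highest peaks of each library, Dag1 peaks numbered 1, 3 and 3 in control-IPs 1, 2 and 4 and 1 in each miR-222-IP. By this count of peaks, which is not a share of bases, neither miR-222-IP was above any of these control-IPs.

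The Dag1 interval over exon 3, with the end of the 5′UTR and the start of the coding sequence (chr9:108217896-108218486), was the member with a peak in all 5 libraries. Its scores were 60.5, 58.1 and 44.3 in control-IPs 1, 2 and 4, 61.1 in miR-222-IP 1 and 151.5 in miR-222-IP 2. After scaling by the median of ratios, which sets the typical score of the shared intervals equal in all libraries, they were 86.1, 59.8, 44.7, 57.6 and 101.4. The scaled score of miR-222-IP 1 was below both control-IPs of its experiment, and that of miR-222-IP 2 was above control-IP 4. The log2 ratio of miR-222-IP to the mean control-IP was −0.34 in experiment 1 and 1.18 in experiment 2. Its mean of 0.42 was smaller than the SD of the log2 scores of the 3 control-IPs (0.47), and the exact permutation test within experiments gave p = 0.833 (two-sided, 6 arrangements, smallest possible p 0.167). The test cannot reach 0.05 with this design.

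With 1 such interval, the counts of members with both miR-222-IPs above their control-IPs and with both below were 0 and 0. Among the 7698 exonic intervals that every library called, the shares were 17.3% and 18.3%. In experiment 2 taken alone, 3 Dag1 intervals could be compared, with log2 ratios of 1.18 at exon 3, −0.23 in the downstream coding interval and −0.31 in the 3′UTR. Over all 16869 such intervals the median was 0.14 and the SD 0.51. Before scaling, miR-222-IP 2 was above control-IP 4 at all 3, and the 2 negative ratios were within 1 SD of that median.

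The remaining Dag1 intervals were in exon 4. The 3′UTR interval (chr9:108206002-108207090) had scores of 42.2 in control-IP 4, 34.7 in miR-222-IP 1 and 51.5 in miR-222-IP 2. The coding interval next to it (chr9:108207350-108208393), which holds a miR-133 7-mer, had 57.7 and 33.7 in control-IPs 2 and 4 and 21.7 and 43.4 in miR-222-IPs 1 and 2. There the highest score was in a control-IP. The upstream coding interval (chr9:108208687-108209663) had 43.8 in control-IP 2 and 36.7 in miR-222-IP 2.

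**Figure D5:**
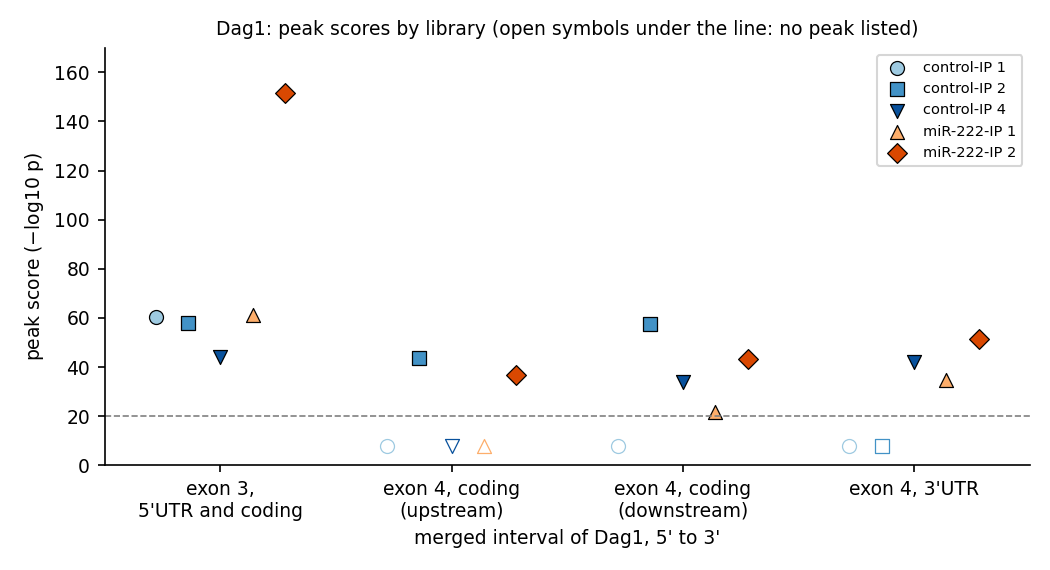
Peak score (−log10 p) of the 4 Dag1 intervals in 5 libraries, from the 5′ to the 3′ end of the transcript, with open symbols below the dashed threshold of 20 where a library lists no peak. At exon 3 the score of miR-222-IP 2 (151.5) is above the other 4 (44.3 to 61.1), and in exon 4 the libraries overlap.

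The syntrophins, adaptors that hold signalling proteins at the complex, had peaks in miR-222-IP 2 alone among the 5 libraries. Sntb1, encoding beta-1-syntrophin, had 3 intervals. Its interval over the end of the coding sequence and the start of the 3′UTR in exon 7 (chr15:55638525-55639430) had a score of 82.8, the highest of any member called in a single library. Its exons 5 and 4 had scores of 23.4 and 26.0. Sntb2, encoding beta-2-syntrophin, had 1 interval in the 3′UTR (chr8:107012930-107014150) with a score of 30.8, which holds the 6-mer followed by an A. Peaks covered 23.3% of the exonic bases of Sntb1 and 11.8% of those of Sntb2 in miR-222-IP 2. Control-IP 3, kept apart, had 5 exonic peaks over Sntb1 (scores 41.2 to 151), and its list had no peak on the chromosome of Sntb2.

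Dystrobrevin was the one gene with intervals in miR-222-IP 1 alone. Dtna, encoding alpha-dystrobrevin, which binds dystrophin and syntrophins, had 4 exonic peaks in each miR-222-IP, 1 in control-IP 1 and none in control-IPs 2 and 4. Among the 10579 highest peaks of each library, 1 was left in control-IP 1, 1 in miR-222-IP 1 and none in the other 3 libraries. Exon 10 (chr18:23595346-23595673) had scores of 22.4 in control-IP 1, 37.1 in miR-222-IP 1 and 44.4 in miR-222-IP 2. After scaling they were 31.9, 35.0 and 29.7, so that miR-222-IP 2 was above control-IP 1 before scaling and below it after. That pair also comes from different experiments, and control-IPs 2 and 4 had no peak to set the spread. The 2 intervals of its 3′UTRs had scores of 29.2 and 23.6 in miR-222-IP 1 and no other peak in the 5 libraries. The first of them holds a miR-31 7-mer. Exons 1 and 2, in the 5′UTR, had scores of 27.4 and 35.6 in miR-222-IP 2. The share of exonic bases under peaks was 8.26% in miR-222-IP 1 and 3.82% in miR-222-IP 2, the one gene of the 8 where the first was the larger.

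Sarcoglycans differed among themselves. Sgca, encoding alpha-sarcoglycan, which is largely confined to striated muscle, had 3 intervals in miR-222-IP 2 alone among the 5 libraries. Their scores were 34.0 at exon 6, 28.7 at exon 7 and 23.4 over the end of the coding sequence and the 3′UTR. Sgcb, encoding beta-sarcoglycan, which is expressed more widely, had a wide interval over its last exon (chr5:73633244-73635682) with scores of 40.2 in control-IP 2, 20.9 in miR-222-IP 1 and 63.6 in miR-222-IP 2. In experiment 1 the control-IP 2 score was above that of miR-222-IP 1. Exon 3 of Sgcb had a score of 31.3 in miR-222-IP 2 alone. Sgcd, encoding delta-sarcoglycan, and Lama2, the laminin chain bound by alpha-dystroglycan in muscle, had no peak in the 5 libraries.

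Most member intervals lay on coding sequence, largely through Utrn. Of the 51 intervals, 38 lay on coding sequence without UTR, 10 held 3′UTR (5 of them 3′UTR alone) and 3 held 5′UTR (2 of them alone). Utrn had 29 of the 38 and 2 of the 10. Shares of these parts over all exonic intervals were not determined. The median width of the 51 was 356 bp (263 to 2439), against 376 bp for all exonic intervals. In 38 of the 51, exactly 1 whole exon other than a first or last one lay inside the interval. These intervals ran a median of 91.5 bp past the 5′ end of the exon (22 to 120) and 93 bp past its 3′ end (40 to 119). A median of 49.0% of the bases of those 38 was exonic. The flanks are intron, as in the interval of exon 17 of Utrn that held the miR-222 7-mer.

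Control-IP 3 is given apart. Its list held peaks on the chromosomes of Utrn, Sntb1, Sgca, Sgcd, Dtna and Lama2 and none on those of the other 4 genes. On these chromosomes 24 of its peaks overlapped member exons, and all 43 member intervals there lay under them, the 34 called in miR-222-IP 2 alone included. Wide peaks covered all 74 exons of Utrn, so that they say nothing of single exons. Of the 24 peaks, 6 were 5000 bp wide or less. They lay over exon 4 of Sntb1 (388 bp, score 73.4), exon 2 of Sntb1 (426 bp, 46.2), exon 1 of Dtna (385 bp, 74.5), exon 2 of Dtna (376 bp, 86.3), exon 4 of Lama2 (417 bp, 55.2) and exons 13 and 14 of Lama2 (1989 bp, 40.9). Exon 4 of Sntb1 and exons 1 and 2 of Dtna, called in miR-222-IP 2 alone among the 5 libraries (26.0, 27.4 and 35.6), thus had narrow peaks of higher unscaled score in this control-IP of the same experiment.

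Other genes around the complex were peak-bearing in part. Of 15 extracellular and basement membrane ligands 9 had an interval, led by Nid2, the basement membrane linker nidogen-2, with 17. Of 4 other sarcoglycans and sarcospan 3 had one, led by Sgce with 11. Of 11 other cytoplasmic partners 6 had one, led by Ank2 with 10, and of 16 enzymes that glycosylate alpha-dystroglycan 13 had one. All 6 genes of laminin-binding integrins and membrane repair had one, led by Itga6, a laminin receptor chain, with 16. Intervals in miR-222-IP 2 alone numbered 12 of 31, 5 of 13, 7 of 19, 12 of 34 and 11 of 42 in these 5 lists.

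The miR-222 7-mer was on an exon in 1 gene of these 5 lists. Itgb1, encoding integrin beta-1, held it in coding sequence, in an interval (chr8:128722295-128723132) with scores of 56.9, 104.3 and 86.0 in control-IPs 1, 2 and 4 and 90.9 and 115.5 in miR-222-IPs 1 and 2. Scaled scores were 81.0, 107.4 and 86.9 in the control-IPs and 85.8 and 77.3 in the miR-222-IPs. The score of miR-222-IP 2 was thus above that of control-IP 4 before scaling and below it after, and miR-222-IP 1 lay between its control-IPs on both scales. Nid2 held the 7-mer in an intron part of an interval. Among the marker lists, Mki67 held it in the 3′UTR, Ptprc in a 5′UTR, and Ccnb1 and Pecam1 in introns.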

How the data were processed

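RISC-IP RNA of MSC myocytes was sequenced in 6 libraries of 2 experiments. The authors aligned reads to mm10, called peaks with macs2 at default parameters in each library separately and deposited peaks whose −log10 p was over 20. Which macs2 version and control track were used is not given in the sources used here. Groups came from the labels. Peaks of 5 libraries were merged where they overlapped or touched, and matched to GENCODE M21 exons (1 bp or more) with bedtools 2.31.1, pandas 2.3.3 and numpy 2.4.6 in Python 3.11.15. Sequences came from GRCm38 through pysam 0.24.0, and miRNAs from RefSeq. miR-133b stood for the miR-133 seed. Scores of an interval are the highest of the library's peaks in it. Log2 ratios compared the miR-222-IP with the mean control-IP of its experiment after median-of-ratios scaling. No count test was run, since the lists hold no counts and depth is unknown. Statistics were tested on simulated data.

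The genes and lists (of 17 glycosylation enzymes 16 were in the annotation) were chosen with earlier results of these data known. The named intervals are those with the miR-222 7-mer, the highest of each gene, those with a peak in all 5 libraries, and in other lists the gene with most intervals (1 is not reported here) and those with the 7-mer. Others in the text were singled out after their values were seen. Alternatives covered the threshold, merging, exon overlap, seed length, scaling, missing peaks and each library.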

Additional observations from a re-analysis of the deposited data

Results flagged for a closer look

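Control-IP 3 was far from the other control-IPs in the share of exonic bases under its peaks for 6 genes, with 88.9% of Utrn, 83.6% of Sntb1, 82.7% of Sgca, 65.1% of Sgcd, 81.1% of Dtna and 86.4% of Lama2. The other 3 control-IPs had at most 3.95% in these genes. The 6 values come from the wide peaks of 1 library and are not independent. Chance alone marks about 1 in 20 groups of 4 in this way.

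Sgcd had 5 exonic peaks and Lama2 had 6 in control-IP 3, whose list was kept apart from the 5 libraries compared, and neither gene had a peak in the other 5 libraries. Their scores were 25.7 to 44.0 in Sgcd and 40.9 to 58.7 in Lama2. The Lama2 peaks include the exon with the only miR-222 7-mer of the spliced member transcripts, under a wide peak of score 43.2.

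At exon 3 of Dag1 the scaled score of the miR-222-IP was below both control-IPs in experiment 1 and above control-IP 4 in experiment 2. The log2 ratios of the 2 experiments differed by 1.52. That difference was not tested, since each experiment had 1 miR-222-IP. Before scaling, miR-222-IP 1 (61.1) was slightly above control-IPs 1 and 2 (60.5 and 58.1).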

How the results depend on the processing

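The 51 member intervals, the 1 with the miR-222 7-mer and the 2 in both miR-222-IPs alone became 13, 0 and 0 at a score of 50, 30, 0 and 1 with 50% of the interval on exons, 12, 0 and 0 with equal numbers of top peaks, and 32, 13 and 0 with control-IP 3, whose wide peaks join intervals and span introns. Leaving out 1 library gave 14 to 51, 0 to 1 and 3 to 39, with 14 and 0 without miR-222-IP 2. Merging up to 100 bp left all 3 counts at 51, 1 and 2. By seed length, 6 intervals held the 6-mer, 0 the 8-mer and 1 the 6-mer followed by an A.

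For the 1 Dag1 interval the mean log2 ratio of 0.42 turned to −0.012 when scaled to total score, and it was 0.91 unscaled, where the interval was above its control-IPs in both experiments (1 in place of 0). Without the replicate block by experiment it was 0.32. Giving missing libraries their lowest score brought in all 51 intervals, with a median of −0.071, 2 above and 16 below; after scaling, the equal floors differ between libraries by construction. Leaving out 1 library gave medians of −0.34 to 1.17, with 0 to 1 intervals above and 0 to 1 below. The Dag1 ratio was −0.33 without control-IP 4 and −0.34 without miR-222-IP 2, where experiment 1 alone was left, and the median was −0.17 without control-IP 1, where 2 intervals qualified. Control-IP 3 gave no ratio for Dag1, whose chromosome its list does not hold. With the longest coding transcript, 8 of 50 shares of exonic bases moved by more than 1 SD of the control-IPs and 1 of 51 intervals changed its transcript part. Depth is unknown, so that a missing peak may be a matter of depth.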
